A study of Homo sapiens with 3 samples.

Results

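The regions described here are YBX1 ChIP-seq peaks that lie on DNA transposons in HEL cells. They were taken from both deposited peak lists by the repeat label that the authors' annotation gives each peak, keeping the class DNA or DNA? (uncertain) on the 22 autosomes. This gave 264 of 21546 autosomal peaks in replicate 1 (1.23%, 95% Wilson interval 1.09 to 1.38) and 174 of 16208 in replicate 2 (1.07%, 0.926 to 1.24). A further 18 and 12 peaks with such a label lay on chromosomes X and Y or on an alternative contig and were left out.

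HEL is an established human erythroleukaemia line with a mutated JAK2 gene, and the cells received no drug. The study holds 2 immunoprecipitations with an antibody against YBX1 (replicates 1 and 2) and 1 input library, against which each replicate was called. Nothing in the labels ties the replicates to separate cultures, and the spread between them may be technical. With 1 group of 2 replicates there is no contrast between groups and no p-value below: intervals are 95% Wilson intervals and cover counting error only.

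DNA transposons are mobile elements that a transposase cuts out of one site and pastes into another. The enzyme recognises inverted repeats at the element's ends, and short copies that lack the enzyme gene can be moved by it in trans. In the human genome they are fossils that no longer move. Most belong to the hAT superfamily, which includes the Charlie elements, or to the Tc1/mariner superfamily (TcMar), which includes the Tigger elements, and many short copies carry MER names (medium reiterated repeat). YBX1 carries a cold-shock domain, binds both RNA and DNA, and was first described as a factor for the Y-box, a promoter motif with the core ATTGG, or CCAAT on the opposite strand.

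No genome of the build of the lists (hg19) was used here, so the sequences of the elements under the peaks are not printed. Promoter-labelled members that both replicates shared lay at 3 genes, and for the 2 of them outside families of near-identical genes the RefSeq promoter (build GRCh38.p14, 250 bases before to 50 after the start) is shown, since a Y-box factor's peak was assigned there. The first is the minus-strand gene LYSMD4, at 1 of its 2 listed starts, and the second is the plus-strand gene SLC51B, the beta subunit of a bile acid and steroid transporter. Capitals mark the Y-box core in either orientation.
LYSMD4: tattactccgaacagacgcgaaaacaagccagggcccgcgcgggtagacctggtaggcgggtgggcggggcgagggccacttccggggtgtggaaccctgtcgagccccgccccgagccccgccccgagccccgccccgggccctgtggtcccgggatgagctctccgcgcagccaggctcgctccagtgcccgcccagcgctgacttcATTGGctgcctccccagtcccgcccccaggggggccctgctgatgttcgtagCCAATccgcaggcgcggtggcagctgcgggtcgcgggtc
SLC51B: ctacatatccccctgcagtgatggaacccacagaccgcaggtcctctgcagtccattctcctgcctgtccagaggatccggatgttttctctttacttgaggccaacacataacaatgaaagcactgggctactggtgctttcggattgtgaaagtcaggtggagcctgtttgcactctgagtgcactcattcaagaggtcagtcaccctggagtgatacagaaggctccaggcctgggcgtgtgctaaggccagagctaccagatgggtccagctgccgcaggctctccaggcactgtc
The LYSMD4 promoter held ATTGG with its first base 41 bases before the start (position -41) and CCAAT with its first base at position 12 after it, and no ATTGG or CCAAT lay in the SLC51B window. Of 35116 RefSeq promoters of the same length, 12155 (34.6%) held ATTGG or CCAAT on the printed strand, so a match is common. The peaks were not placed relative to these windows, because the builds differ and positions were not converted. The windows are therefore not shown to be the sequence under the peaks, and whether a marked core lies under a peak was not tested.

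The 2 lists had similar depth: MACS kept 10010819 ChIP tags in replicate 1 and 9926271 in replicate 2, against 74780414 for the input. The DNA transposon peaks held few of them, 2201 tags (0.022%) over 18367 bp in replicate 1 and 1457 tags (0.0147%) over 12254 bp in replicate 2. The median member had 6 tags in each replicate, and the most tags were 52 and 58. Members with 5 tags, the fewest in either list, made up 37.9% and 36.2%, against 21.8% and 21.9% of all autosomal peaks and 32.2% and 34.6% of those outside tandem repeats. The peaks were narrow, with median widths of 59 bp and 60 bp, and these widths rest on a fragment shift of 20 bp in MACS, which is shorter than a 36 bp tag. The authors' fold enrichment is a ratio of ChIP signal to background. Its median over the members was 42.7 in replicate 1 (quartiles 32.9 and 53.9, range 12.3 to 132) and 43.4 in replicate 2 (quartiles 37.4 and 54.4, range 7.98 to 163), against 53.9 and 54.4 over all autosomal peaks, 43.4 and 40.8 over those outside tandem repeats, and 42.6 and 41.9 over LINE peaks without HAL1-2a_MD. For 31.4% and 30.5% of the members the background was the genome-wide level, because the input around the peak lay no higher. Such folds fall on whole multiples of 13.5 (replicate 1) or 13.6 (replicate 2), so they are coarse. Nor do they follow the tag count of the whole peak. In replicate 1, shared peaks with 15 tags (Ricksha_c), 11 tags (Zaphod) and 10 tags (MER3) all had 94.4.

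Elements of the hAT-Charlie and TcMar-Tigger families held most of the peaks. hAT-Charlie elements had 136 peaks in replicate 1 (51.5%, 45.5 to 57.5) and 80 in replicate 2 (46.0%, 38.7 to 53.4). TcMar-Tigger elements had 75 (28.4%, 23.3 to 34.1) and 53 (30.5%, 24.1 to 37.7). The share of each of these families differed between the replicates by less than its counting interval. No other family passed 14 peaks: hAT-Blackjack had 14 and 9, MuDR 9 and 10, hAT-Tip100 8 and 8, TcMar-Tc2 7 and 2, hAT without a subfamily 7 and 3, and TcMar-Mariner 6 and 8. Whether a family holds more peaks than its share of the genome was not tested, since the number of bases it covers was not used here.

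**Figure D1:**
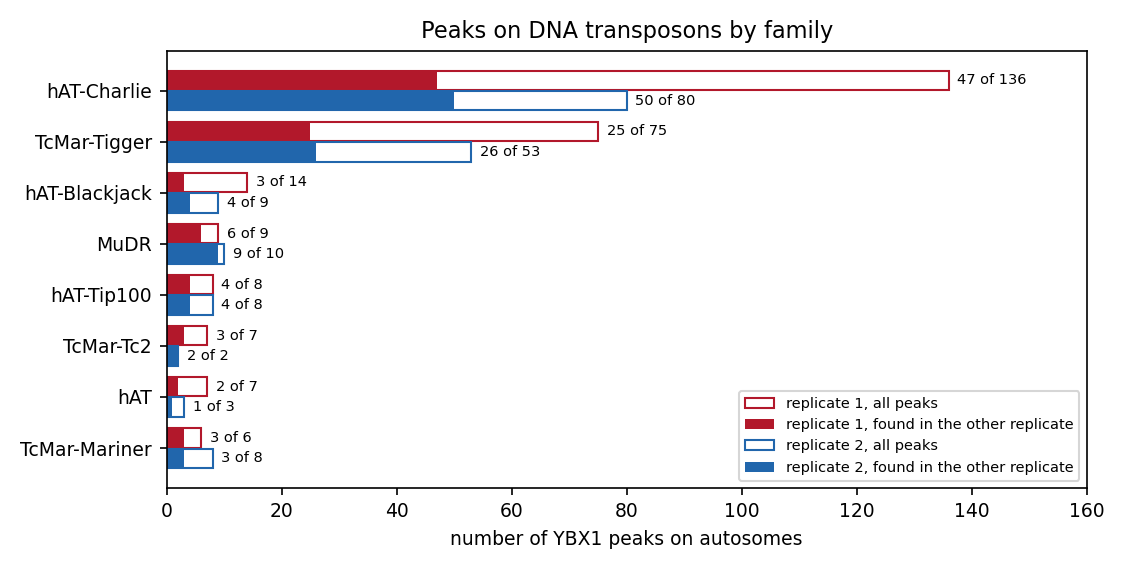
Number of autosomal YBX1 peaks (x axis) on each DNA transposon family (y axis) in replicate 1 (red) and replicate 2 (blue). The filled part of each bar is the number found in the other replicate, printed beside it, for example 47 of 136 and 50 of 80 for hAT-Charlie and 25 of 75 and 26 of 53 for TcMar-Tigger.

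A peak counted as found in the other replicate when it overlapped any peak of that list by at least 1 bp. In replicate 1, 94 of the 264 members were found (35.6%, 30.1 to 41.6), against 53.8% of all autosomal peaks. In replicate 2, 100 of the 174 were found (57.5%, 50 to 64.6), against 77.5%. Both shares of the members lay below that of the whole list by more than the counting interval. The whole list is largely peaks on simple tandem repeats, however, which were found in 71.8% and 91.3% of cases. Autosomal peaks outside tandem repeats were found in 36% and 58.9%. The members lay within their counting interval of that last level. Beside the other interspersed repeats they sat in the middle: LINE peaks without the element HAL1-2a_MD were found in 30.2% and 57.2%, LTR peaks in 38.7% and 61.2%, and SINE peaks in 31.2% and 49.9%.

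The number of tags went with whether a member was found again. At 5 tags, 19 of 100 replicate 1 members (19.0%, 12.5 to 27.8) and 22 of 63 replicate 2 members (34.9%, 24.3 to 47.2) were found. At 11 to 20 tags the shares were 72.7% (58.2 to 83.7) and 85.2% (67.5 to 94.1), and above 20 tags 11 of 11 and 5 of 6 were found. Members that were found had a median of 10 tags in replicate 1 against 6 for those that were not, and 7 against 5 in replicate 2. Their median fold enrichment was 53.9 against 40.5 and 47.1 against 40.8. At matched tags the interval of the DNA transposon peaks overlapped those of LINE, LTR and SINE peaks in every tag class of both replicates. Tandem-repeat peaks with 5 tags were found in 28.5% (26 to 31.1) and 71.9% (69.2 to 74.4) of cases, an interval that was separate from that of the members in replicate 2 only.

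**Figure D2:**
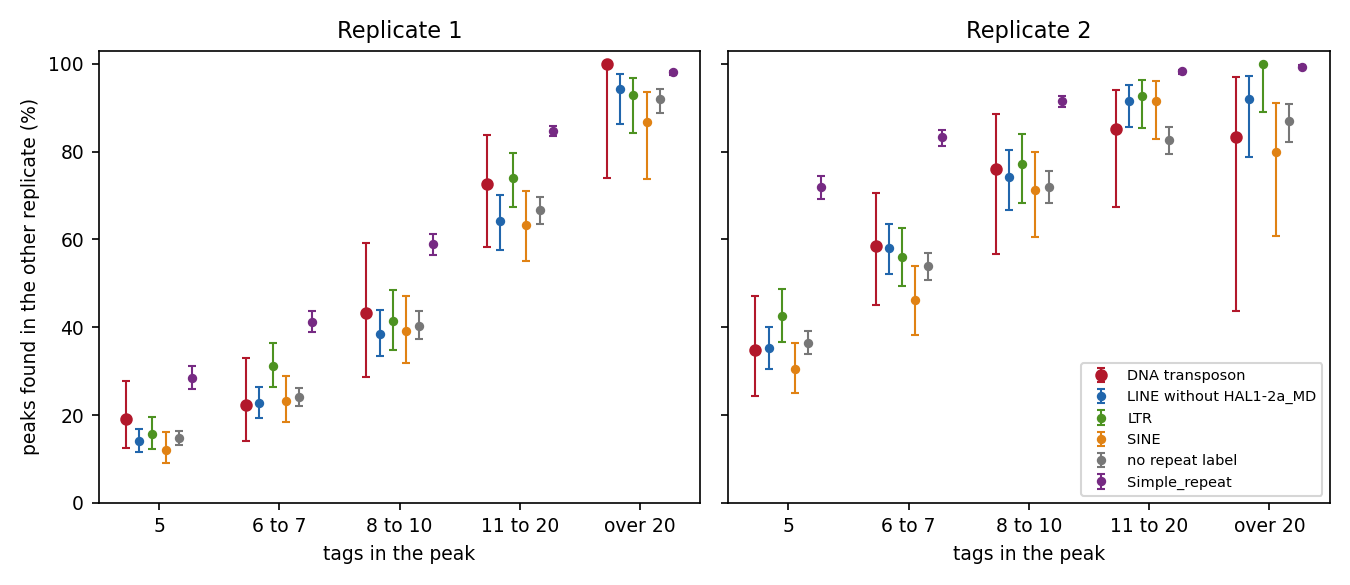
Share of peaks found in the other replicate (y axis, percent) by the number of tags in the peak (x axis), for DNA transposon peaks (red) and 5 other classes, one panel per replicate; bars are 95% Wilson intervals. Between the classes of 5 and of 11 to 20 tags, DNA transposon peaks climb from 19.0% to 72.7% (replicate 1) and from 34.9% to 85.2% (replicate 2), close to LINE, LTR, SINE and unlabelled peaks and below tandem-repeat peaks at low tag numbers.

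Over all tag numbers, the sharing intervals of the main families overlapped in both replicates. hAT-Charlie peaks were found in 34.6% of cases (27.1 to 42.9) in replicate 1 and 62.5% (51.5 to 72.3) in replicate 2, and TcMar-Tigger peaks in 33.3% (23.7 to 44.6) and 49.1% (36.1 to 62.1). Among peaks with 5 to 10 tags the values were 27.5% and 54.5% for hAT-Charlie and 16.9% and 38.6% for TcMar-Tigger. Above 10 tags the order was the reverse in replicate 1, with 17 of 27 hAT-Charlie peaks and 15 of 16 TcMar-Tigger peaks found, and in replicate 2 all 14 and all 9 were found. The median fold enrichment was 44.7 and 46.5 on hAT-Charlie elements against 40.5 and 40.8 on TcMar-Tigger elements, which is a small step beside quartiles of 35.1 and 53.9 within hAT-Charlie peaks of replicate 1. For MuDR, the family of Mutator-like elements, both readouts were higher than for these families: 6 of 9 (35.4% to 87.9%) and 9 of 10 (59.6% to 98.2%) of its peaks were found, and its median fold enrichment was 60.6 and 54.4. These are few peaks, all of them on 1 element, Ricksha_c, and the difference was not tested. Being found did not require a partner with the same label. In most regions that the replicates shared on Ricksha_c, only 1 list had a peak with that label. Over all DNA transposon regions shared by the replicates, this held for 39 of 115.

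The annotation labelled a partner with the same element in most cases. Of the 94 replicate 1 members that were found, 77 overlapped a replicate 2 peak on a DNA transposon, and in 77 the element name was identical. For 10 others the partner was labelled as a tandem repeat only and for 7 as something else. In replicate 2, 78 of 100 had a partner on the same element, 19 a tandem-repeat partner only and 3 another. In the cases with a tandem-repeat partner, overlapping peaks thus carried different repeat labels in the lists.

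Peaks were spread over many element names, with 97 names in replicate 1 and 78 in replicate 2. Names with 1 peak numbered 40 and 38, and the 5 most frequent names held 20.8% and 22.4% of the peaks. MER5A, a short hAT-Charlie element, was the most frequent in replicate 1 with 16 peaks of 5 to 15 tags, of which 5 were found again. Replicate 2 had 7, of which 4 were found. In replicate 1 adjoining pairs of these peaks lay in introns of NXPE2 and SLC2A14, and they may not be separate sites. Both SLC2A14 peaks were among those found, and MER5A gave 4 shared regions. The related MER5B had 10 peaks (2 found) and 4 (3 found), and MER20 had 9 (2 found) and 4 (1 found). In replicate 2 the most frequent name was Ricksha_c with 10 peaks, beside 9 in replicate 1.

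Tigger1, the most frequent TcMar-Tigger element in replicate 1, had 11 peaks there and 7 in replicate 2. In replicate 1 its peaks had 5 to 7 tags and a median fold enrichment of 30.6, and 2 were found in replicate 2. In replicate 2 they had 5 to 10 tags and a median fold enrichment of 41.4, and 2 of 7 were found, at positions near TMEFF2 on chromosome 2 and in a stretch of chromosome 12 without a named gene. Tigger3b, of the same family, had 8 peaks in each replicate, with medians of 11 and 7.5 tags and at most 34 and 12, and 5 of 8 were found in each. Its median fold enrichment was 48.9 and 40.6, so that it was above Tigger1 in replicate 1 only. Of these peaks, 4 in replicate 1 and 3 in replicate 2 lay on chromosome 21.

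**Figure D3:**
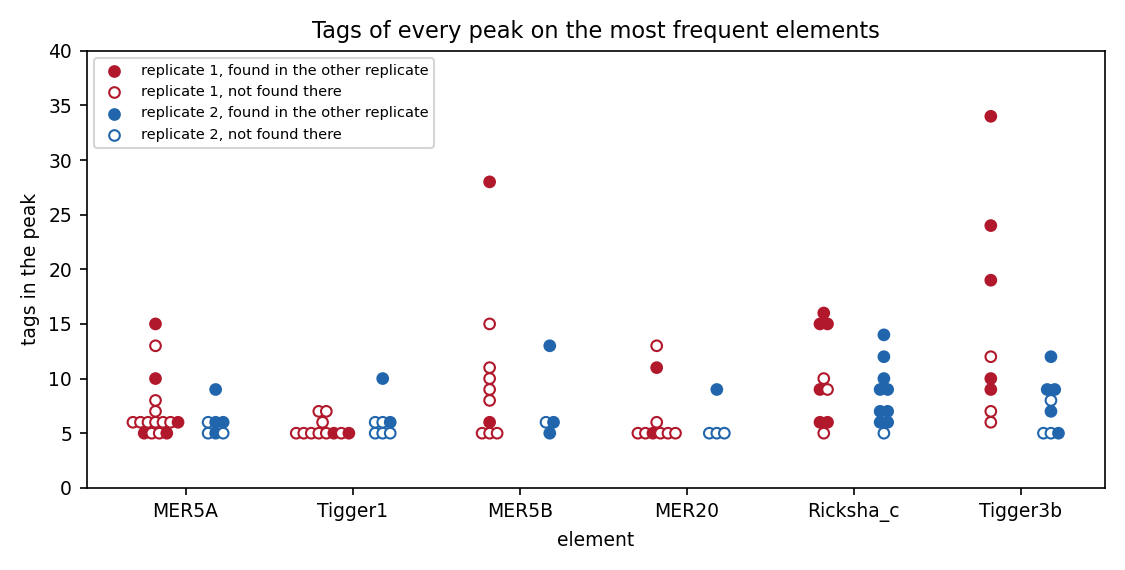
Tags (y axis) of every peak on the 6 elements with at least 8 peaks in replicate 1 (x axis); replicate 1 in red, replicate 2 in blue, filled where the peak was found in the other replicate. Tigger1 peaks stay at 5 to 7 tags in replicate 1 and are mostly open symbols, whereas Ricksha_c and Tigger3b peaks are mostly filled.

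A tandem-repeat peak of the same list lay within 1 kb of 132 members in replicate 1 (50%, 44.0 to 56.0) and of 96 in replicate 2 (55.2%, 47.8 to 62.4). The neighbours were close: the median gap was 82.5 bp in replicate 1 and 80.5 bp in replicate 2, and the widest was 441 bp and 281 bp. Past them the next tandem-repeat peak was far off, and the members without a neighbour had a median gap of 104116 bp and 153540 bp. Other classes had similar shares, of which SINE was highest in replicate 1 and the members themselves in replicate 2. All autosomal peaks outside tandem repeats had a neighbour within 1 kb in 49.9% and 45.5% of cases, LINE peaks in 51.3% and 49.7%, LTR peaks in 56.7% and 54.0%, and SINE peaks in 62.3% and 53.9%. The neighbour's repeat unit was TCTA or TAGA, which are rotations and strands of AGAT, for 111 of 132 members (84.1%) and 85 of 96 (88.5%), while these units made up 43.8% and 46.6% of all tandem-repeat peaks. The units next to peaks of the other classes were not counted. Whether this share is particular to the members was therefore not tested.

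**Figure D4:**
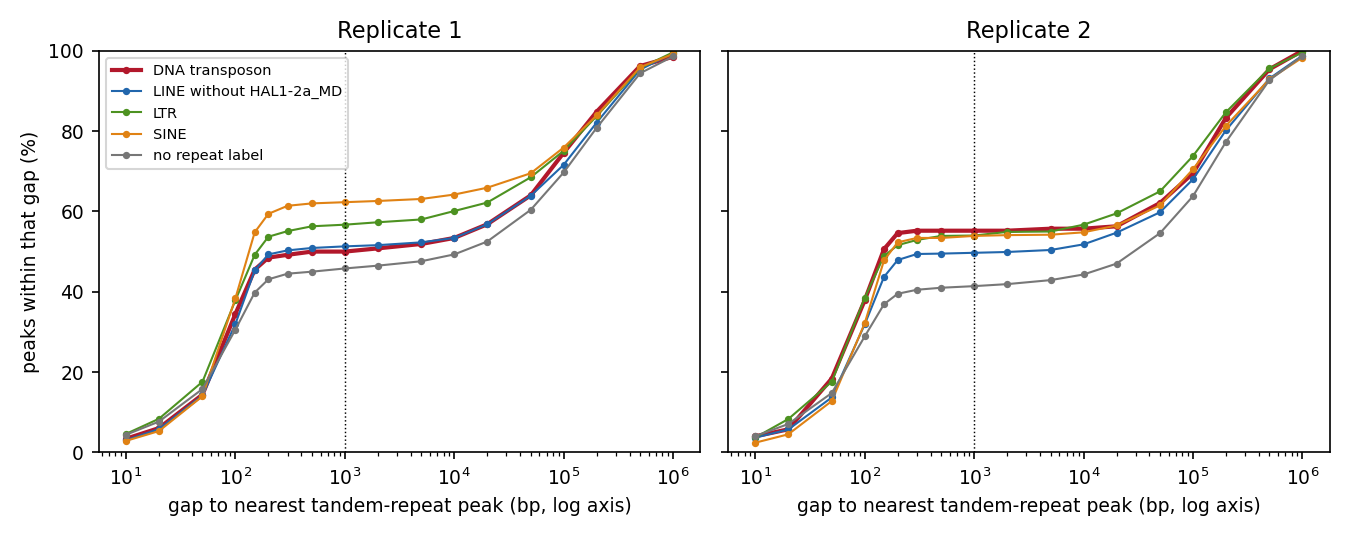
Share of peaks (y axis, percent) with a tandem-repeat peak of the same list within the gap on the x axis (bp, log axis), for DNA transposon peaks (thick red line) and 4 other classes, one panel per replicate; the dotted line marks 1000 bp. The red line rises from 3.41% at 10 bp to 48.5% at 200 bp in replicate 1 and from 4.02% to 54.6% in replicate 2, and stays nearly level to 10000 bp. On that plateau it lies below SINE and LTR peaks in replicate 1 and up to 5000 bp slightly above all 4 other classes in replicate 2.

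Members next to a tandem-repeat peak were found again in 40.2% of cases (32.2 to 48.7) in replicate 1 and 63.5% (53.6 to 72.5) in replicate 2. Those without such a neighbour were found in 31.1% (23.8 to 39.4) and 50% (39.2 to 60.8). In TcMar-Tigger peaks the values were 44.4% (29.5 to 60.4) with a neighbour and 23.1% (12.6 to 38.3) without in replicate 1, and 69.0% (50.8 to 82.7) and 25% (12 to 44.9) in replicate 2. In hAT-Charlie peaks the values were 34.3% and 34.8% in replicate 1 and 57.5% and 67.5% in replicate 2. Only the TcMar-Tigger intervals of replicate 2 were separate, and whether this difference itself differs between the families was not tested. With no tandem-repeat peak of either list within 1 kb, 117 and 59 members remained, of which 25.6% (18.6 to 34.2) and 45.8% (33.7 to 58.3) were found; this set cannot hold a member whose partner is itself a tandem-repeat peak.

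Overlapping peaks of both lists were merged into 115 shared regions with a member in at least 1 list, of which 76 held a DNA transposon peak in both. hAT-Charlie elements gave 55 of them, TcMar-Tigger 31, MuDR 11, hAT-Tip100 5 and hAT-Blackjack 4. A tandem-repeat peak lay in 44 of the regions, and in or within 1 kb of 85. Taking the strongest peak of each list in a region, the median fold enrichment was 64.2 in replicate 1 and 53.8 in replicate 2, and it was higher in replicate 1 in 65 regions. The log2 fold enrichments of the replicates correlated across the 115 regions (Pearson r 0.795, Spearman rho 0.755), over points that share 1 input library and 1 caller. In the 64 regions where the strongest peak sat on the transposon in both lists, r was 0.644 and rho 0.592.

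**Figure D5:**
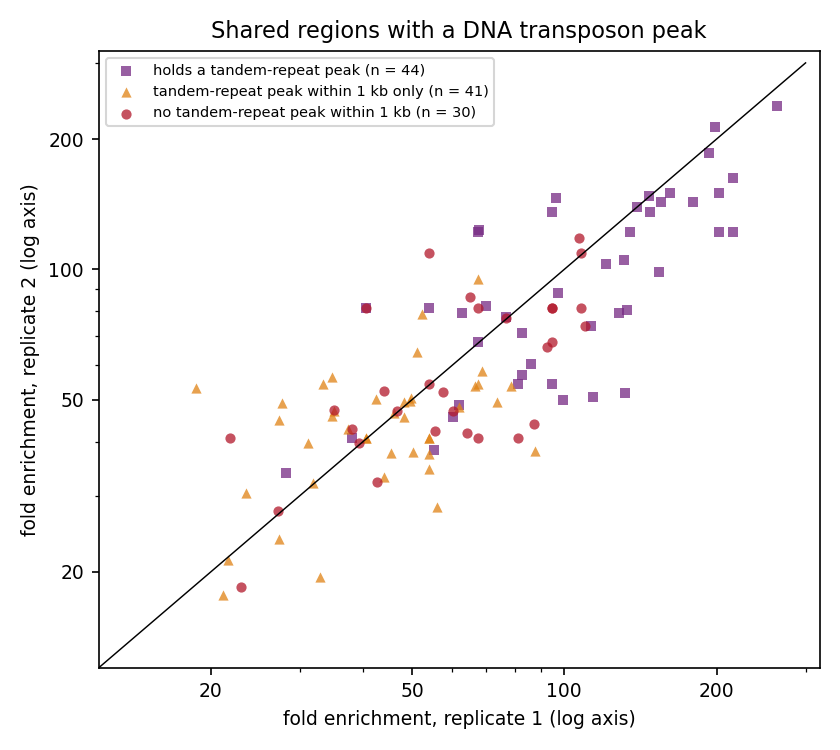
Fold enrichment of the strongest peak in replicate 1 (x axis) and replicate 2 (y axis), both log axes, of the 115 shared regions; the line marks equal values. Regions that hold a tandem-repeat peak (44 purple squares) reach 263 and 239, whereas the 30 regions with no tandem-repeat peak within 1 kb (red circles) stay at or below 110 in replicate 1 and 118 in replicate 2.

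The 12 shared regions with the highest fold enrichment, ranked by the lower replicate, all held a tandem-repeat peak, and in most of them that peak was stronger than the one on the transposon. The first lay in an intron of RGS9, a regulator of G protein signalling, at chr17:63178976-63179234 and reached 263 and 239, but its peak on the hAT-Tip100 element MER45A had 6 and 5 tags at 65.8 and 39.9. The strongest RGS9 peak carried no repeat label in replicate 1 and the label TCTA repeat in replicate 2. The second lay in an intron of ADARB2, a relative of the RNA-editing enzymes, at chr10:1675520-1675854 with 199 and 213, where the Tigger4a peak had 11 and 6 tags at 53.4 and 54.4. The third, on Tigger3c at chr17:7955813-7956789 between genes that include the clock gene PER1, reached 193 and 186 with 236 and 179 tags, while the Tigger3c peak had 5 and 6. In these 3 regions the element carried a weak peak beside a strong one that at least 1 list labelled as a tetranucleotide repeat.

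Of the highest hAT-Charlie regions, Charlie7a at chr10:130722611-130723074 reached 216 and 163. The 216 was that of a TCTA-repeat peak with 69 tags, and the Charlie7a peak of replicate 1 had 11 tags at 80.9. In replicate 2 the 163 was on Charlie7a, with 58 tags. Charlie18a at chr14:97534552-97534985 reached 202 and 150 (its element's own peak had 5 tags in each replicate, at 40.5 and 40.8), and Charlie2b at chr13:106903422-106903520 reached 147 and 148. At Charlie2b 1 peak of each list overlapped, with 20 and 15 tags, and it was labelled TAGA repeat in replicate 1 and Charlie2b in replicate 2. The third TcMar-Tigger region, MER47B at chr6:164608054-164608583, had 139 in both replicates with 57 tags in each, and its MER47B peak was called in replicate 1 only, with 14 tags. For hAT-Blackjack the highest were MER63B near ERBB2IP and the neurolysin gene NLN at chr5:65168415-65168856 (162 and 150), MER63A at chr19:35949199-35949584 near ATP4A, a subunit of the gastric proton pump (155 and 143), and a second MER63B at chr2:41224209-41224343 (67.4 and 54.4).
The last of these was a peak on the element itself, with 14 and 5 tags, and a tandem-repeat peak stood 62 bp and 56 bp away. Near NLN both folds were those of TCTA-repeat peaks, and the MER63B peaks had 19 and 8 tags at 78.0 and 31.6. Near ATP4A the 155 was that of a TAGA-repeat peak, and the region held no MER63A peak in replicate 1. In replicate 2 the 143 was on MER63A, with 26 tags.
The others of the 12 were regions with MER5B near the CD300 immune receptor genes on chromosome 17 (180 and 143), with the TcMar-Tc2 element Kanga1d near ESM1 and the granzyme gene GZMK on chromosome 5 (148 and 136), and with MER5B at LOC100996671 on chromosome 12 (216 and 122). These folds were those of tandem-repeat peaks. At the CD300 genes MER5B had no peak in replicate 1 and 6 tags at 40.7 in replicate 2, and Kanga1d had 5 tags in each replicate at 53.9 and 40.8. At LOC100996671 the MER5B peak was strong as well, with 28 and 13 tags at 121 and 109.

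Some regions were strong on the transposon alone, and those named next were picked with their values in view. Among the 64 regions whose strongest peak sat on the element in both lists, 27 had no tandem-repeat peak of either list within 1 kb. The highest was Charlie1b near LINC00470 at chr18:1422948-1423027, with 13 and 14 tags and fold enrichments of 108 and 109. Charlie1a in an intron of ZDHHC14, a palmitoyltransferase gene, at chr6:158063059-158063162 followed with 21 and 18 tags at 107 and 118. A second Charlie1a near TBC1D5 at chr3:17860988-17861218 had 20 and 26 tags at 110 and 74.1, and MER3 between TLE2, TLE6, GNA11 and GNA15 at chr19:3075881-3075951 had 10 and 7 tags at 94.4 and 81.6. In each of these the nearest tandem-repeat peak of either list was over 50 kb away.

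The element MER113A, also singled out afterwards, was found at the same 4 places in both replicates, and none had a tandem-repeat peak within 1 kb. In an intron of PDXDC1 at chr16:15077474-15077559 it had 9 and 14 tags with 76.6 and 77.3. Near AXIN2, an inhibitor of Wnt signalling, at chr17:63438313-63438397 it had 11 and 10 tags with 92.6 and 66.3. Near EIF4E3 at chr3:71868056-71868121 it had 6 tags in each replicate with 46.7 and 47.1. The fourth, in an intron of PDXDC2P at chr16:70091249-70091312, had 6 and 9 tags with 53.9 and 109; PDXDC2P is a pseudogene copy of PDXDC1, so reads of these regions may be hard to tell apart. The more frequent MER113 without the letter had 6 peaks in replicate 1, of which 0 were found.

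Ricksha_c gave 11 shared regions, the most of any element, and in most of these only 1 list had a peak labelled Ricksha_c. A tandem-repeat peak lay in 6 of them and within 1 kb of 4 more, so that 1 stood alone, at chr16:22749830-22749917 with 15 and 12 tags and 94.4 and 81.6. The list assigns this peak to the microRNA genes MIR548AA2 and MIR548D2, which RefSeq places on another chromosome, and the gene label is therefore uncertain. Further Ricksha_c regions lay in introns of PITPNC1 (99.3 and 49.9) and of RNF213 (60.2 and 45.7), and in both the strongest peak was on the tandem repeat. A pair of adjoining Ricksha_c regions lay near LINC00571 on chromosome 13, and they may not be separate sites. Among Tigger3b regions, the introns of PDX1-AS1 at chr13:28409359-28409498 (19 and 7 tags, 78.4 and 53.8) and of IL12A-AS1 at chr3:159762984-159763121 (10 and 9 tags, 66.7 and 53.8) were the highest with the element's own peak on top.

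Most members lay away from gene starts. The annotation put 152 replicate 1 members (57.6%) and 104 replicate 2 members (59.8%) between genes, 105 (39.8%, 34.1 to 45.8) and 65 (37.4%, 30.5 to 44.7) in introns, 7 and 5 at promoters, and 0 and 0 in exons. The intron share was near that of LINE peaks (38.5% and 38.8%) and above that of LTR peaks (19.4%, 17.2 to 21.8, and 18.1%, 15.4 to 21.1). Members in introns were found again in 33.3% and 58.5% of cases and those between genes in 36.8% and 56.7%, within each other's counting intervals. After merging the lists into 359 loci, 138 (38.4%, 33.6 to 43.6) carried an intron label.

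At promoters, 3 regions were shared. At LYSMD4, whose promoter is printed above, the Ricksha_c region chr15:100275410-100275535 had 16 and 10 tags with 42.4 and 50.2, and a tandem-repeat peak stood 89 bp and 117 bp away. At SLC51B the MER117 region chr15:65339941-65340043 had 11 and 6 tags with 56.0 and 28.2, with a tandem-repeat peak at 81 bp and 113 bp. At TRIM49D2P the Tigger3a region chr11:89652411-89652494 had 6 and 5 tags with 21.8 and 40.7 and no close tandem-repeat peak. TRIM49D2P belongs to a family of near-identical genes, so its placement is uncertain. The promoter members that were not found again lay at NOS1AP, FXYD7, LINC00910 and DSCAM-IT1 in replicate 1 and at TFF3 and at MRPL10 and LRRC46 in replicate 2.

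The 3 members of each list with the highest fold enrichment among those without a partner had 7 to 15 tags. In replicate 1 they were MER63B in an intron of the myosin gene MYO1E (7 tags, 94.4), MER58B in LOC100132735 (11 tags, 85.7) and MER5B in an intron of the phospholipase gene PLCH1 (10 tags, 83). In replicate 2 they were MER106A near the CD300 genes (9 tags, 81.6), the mariner element HSMAR1 near olfactory receptor genes that include OR4C6 (15 tags, 68.0) and MER1B in an intron of SORCS3 (7 tags, 68.0). The MER58B, MER106A and HSMAR1 peaks had a tandem-repeat peak 60 bp, 2 bp and 35 bp away.

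The annotation named 330 genes for replicate 1 members and 209 for replicate 2 members, 121 of them in both. For peaks between genes it names neighbours, often several, so a name does not mean that the gene is bound. Of 31 genes that themselves descend from DNA transposons, such as SETMAR, 0 were named for a member, although 11 were named for some autosomal peak. All members together named 418 of the 10460 genes that any autosomal peak named (4.0%). Of 37 JAK-STAT genes, 20 were named for some peak and 1 for a member, PIAS2, a SUMO ligase that binds STAT proteins, in replicate 1 only. Of 36 MAPK-ERK and MNK genes, 15 were named for some peak and 1 for a member, the Raf-MEK scaffold KSR2, also in replicate 1 only. Of 40 splicing factor genes, 17 were named for some peak and 2 for a member, U2AF1 and SF3A1, in replicate 1 only, and both peaks lay between genes. Of 30 haematopoietic transcription factor genes, 16 were named for some peak: ERG was named in replicate 1 (MER44C in an intron, 6 tags, 31.2) and BCL11A, a repressor of fetal globin genes, in both.

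The BCL11A peaks lay on MER20 between BCL11A and MIR4432, at chr2:60631580-60631624 with 5 tags and 38.6 in replicate 1 and at chr2:60631582-60631673 with 9 tags and 34.6 in replicate 2. A tandem-repeat peak stood 114 bp and 175 bp away. In replicate 1 the strongest peak of this shared region was not on MER20 but labelled L2c, a LINE, with 11 tags at 53.9. The smallest gap from a replicate 1 peak of the region to a tandem-repeat peak was 2 bp. The BCL11A region was the 1 place where a gene of the 5 lists was named for a DNA transposon peak in both replicates.

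Chromosome 21 held 16 members in replicate 1 (6.06% of members, against 3.36% of all autosomal peaks) and 11 in replicate 2 (6.32% against 3.55%). Their median fold enrichment was lower, 27.5 and 25.8 against 43.9 and 46.2 on the other autosomes, although their median tags were higher, 9.5 and 8 against 6 and 6. None of them had a fold over the genome-wide background, against 33.5% and 32.5% elsewhere, so the background used for chromosome 21 members was the local input. All autosomal peaks on chromosome 21 had medians of 30.3 and 30.5, so the lower folds there were not confined to DNA transposons. GRIK1, a kainate receptor gene on that chromosome, had the most members of any gene in replicate 1, with 4 intron peaks on MADE1, Tigger13a and HSMAR2. Of these, the MADE1 peak (36 and 12 tags, 38 and 25.6) and a Tigger13a peak (21 and 14 tags, 64.2 and 41.9) were found in both replicates. In the MADE1 region the strongest replicate 2 peak was on a TCTA repeat, with 14 tags at 40.7.

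On chromosome 9 the members' medians were lower still, 23.8 and 20.5, while all peaks of that chromosome had 53.9 and 54.4. The members fell into 2 groups on either side of the widest stretch without one, a split drawn with the values in view. Up to position 20870580 there were 8 members in replicate 1 with fold enrichments of 14.4 to 31.9 and 6 in replicate 2 with 15 to 32.0. From position 83523890 on, 5 members had 53.9 to 94.4 and 3 had 40.8 to 95.2, so the groups did not overlap in either replicate. All peaks of the first stretch, 252 and 176, had medians of 22.3 and 21.1 as well, against 67.4 and 56.9 over the 455 and 336 peaks of the second. As on chromosome 21, 0 members of the first stretch had a fold over the genome-wide background, whereas 5 of 5 and 3 of 3 of the second did. All peaks went the same way, with 3 of 252 and 0 of 176 in the first stretch and 359 of 455 and 265 of 336 in the second. The contrast was therefore not confined to DNA transposons.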

How the data were processed

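YBX1 ChIP-seq of HEL cells was deposited as 1 annotated peak list per replicate. Each was called on its own with MACS 1.4.2 against the same input, per the file headers (p cutoff 1e-05, fragment length d 20 bp, tag size 36 bp). Replicates were not pooled. The header of the replicate 2 list names an alignment numbered 3, and the label was followed here. Per the submitters' processing notes, the build was hg19 and the tools included Bowtie2, Trimmomatic 0.36, MACS 1.4 and bcl2fastq 02.14.01.07. The lists had been filtered by the authors; their filter is not stated in the sources used here. The deposited values are the tag count in a peak, a score (the negative log10 of the p-value, times 10), a false discovery rate in percent that was not used, and the fold enrichment, a ratio to background, all the authors' own. Position, gene and repeat labels are the authors' annotation.

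Here, members were selected by repeat class and compared between lists by overlap of at least 1 bp. A fold within 0.006 of a whole multiple of 13.5 (replicate 1) or 13.6 (replicate 2) was counted as a fold over the genome-wide background. Neighbours were tandem-repeat peaks within 1 kb. The overlap, gap and background rules were tested on simulated data. Intervals are 95% Wilson intervals. Python 3.11.15, pandas 2.3.3, numpy 2.4.6, scipy 1.17.1 and matplotlib 3.10.9 were used. Of 418 gene symbols, 375 were current and 25 matched an older name in a RefSeq table of GRCh38.p14, used for names and promoters only. Named elements had at least 8 peaks in replicate 1 or led a family of at least 10; named regions were the 12 strongest shared ones, the 3 strongest of each such family, all promoter ones and the 3 strongest unshared peaks of each list. The members and lists were chosen with earlier results of these data known. Alternatives covered the overlap rule, a score of at least 100 (p of at most 1e-10), the tag minimum, the repeat class, chromosome X, windows of 500 bp and 5 kb, and leaving out each replicate.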

Additional observations from a re-analysis of the deposited data

Results flagged for a closer look

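Chromosomes X and Y were outside the comparisons, yet MER20, a short hAT-Charlie element, had more peaks there than on all autosomes. Replicate 1 had 17 MER20 peaks on X and Y against 9 on autosomes, and replicate 2 had 11 against 4. In replicate 1, 7 lay on X, from position 884913 to 3233199, and 10 on Y, from 834962 to 14612168. In replicate 2, 4 lay on X, from 1337393 to 1677838, and 7 on Y, from 1287402 to 14612790. These are counts of listed peaks. Whether the peaks on X and those on Y are separate sites was not tested. No sample without YBX1 immunoprecipitation has a peak list, so the MER20 counts were not set against a control.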

How the results depend on the processing

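Of 51 recomputed values for 10 results, 37 stayed within the main value's error (its 95% interval, the spread of the replicate medians, or 1.5 times a count) and 14 did not. With a score of at least 100, the share of members found again in replicate 2 was 71.1% in place of 57.5%, and the median fold enrichment was 63.5 and 64.5. Shared regions fell from 115 to 44 with that score and to 76 where both peaks must carry the label. The median fold was 53.9 and 54.4 for folds over the genome-wide background only, and 53.9 and 47.1 for members found again. Alternatives chosen after seeing the data gave 25.6% and 45.8% found again with no tandem-repeat peak of either list within 1 kb, medians of 43.9 and 46.2 without chromosome 21, and 66.1% of replicate 2 members next to a tandem-repeat peak of either list. Without replicate 1 or replicate 2, the share of loci ranged from 46.0% to 51.5% for hAT-Charlie, from 28.4% to 30.5% for TcMar-Tigger and from 37.4% to 39.8% for intron labels. The score and tag alternatives keep fewer peaks by construction; the cause of the other shifts was not tested. The median member had 6 tags, and no alternative varied depth. No paired analysis was possible because there is 1 group.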

Other observations

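The element HSMAR2, a human mariner element, had 3 peaks in replicate 2 near REXO1L2P on chromosome 8, a copy of a tandemly repeated gene family. They began at 86805132, 86817342 and 86829686, which is 12210 bp and 12344 bp apart, and had 26, 16 and 12 tags. Their fold enrichments of 10.4, 8.46 and 7.98 were the lowest of all DNA transposon peaks of that list, and replicate 1 had no overlapping peak. Reads of such gene copies may be hard to tell apart, so these may not be separate sites.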
